A study of Mus musculus with 10 samples.

Results

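Fatty acid oxidation and ketogenesis genes were followed in the livers of mice with and without the glucagon receptor. The set holds 30 genes, named one by one, whose probes were found by the gene name in the array files or an older synonym (Hadh is named Hadhsc there). All 30 were found, with 41 probes out of 41174 on the array, and all 30 passed the filter on dim probes that left 18921 of 27670 genes. RNA of 10 livers was hybridised on 2-colour arrays: 5 livers of mice knocked out for Gcgr (KO; livers 1 and 5 male, livers 2, 3 and 4 female) and 5 of wild-type mice (WT; livers 3 and 4 female, livers 1, 2 and 5 male). All groups share the tissue and the pooled mouse reference RNA that was labelled with Cy3 on every array, while liver RNA was labelled with Cy5. The labels name no strain, age, feeding state or deleted part of Gcgr, and no treatment, and a liver is taken as a sample of 1 mouse. Each level below is a log2 ratio of liver over reference RNA, and each log2 fold change is a difference of such ratios.

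The liver burns fatty acids in steps that these genes encode. Fatty acids enter the cell with the help of carriers, are bound to coenzyme A, and cross the inner mitochondrial membrane as carnitine esters. There beta-oxidation shortens them in repeated cycles of dehydrogenation, hydration, a second dehydrogenation and thiolysis, and the acetyl-CoA formed feeds the citric acid cycle or ketone body synthesis. Peroxisomes shorten very long chains, thioesterases release coenzyme A again, and the nuclear receptor PPAR alpha switches on many of the genes in fasting. Glucagon, the hormone whose receptor is missing in KO mice, is released in fasting and is known to raise hepatic fatty acid oxidation and ketone output.

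Gcgr itself had a mean level of 0.32 ± 0.04 in KO livers and 7.99 ± 0.16 in WT livers (SD, n = 5 each), so every liver matched its genotype label. Xist and the Y-linked Ddx3y, Eif2s3y and Kdm5d matched the sex labels in all 10 livers. All 8 measured hepatocyte markers of 10 listed were well above background on every array, with a list mean of 7.20 to 7.30 in KO livers and 6.88 to 7.52 in WT livers. The endothelial list averaged 3.46 to 3.74 in KO livers and 2.79 to 3.36 in WT livers, and 2 of its 7 genes passed as higher, Pecam1 (0.26) and Lyve1 (1.47). The adipocyte list averaged 0.64 to 2.72 in KO livers and 0.57 to 1.07 in WT livers, with 1 of 6 measured genes higher (Cidec) and the defining markers Adipoq and Lep below the filter. Its largest difference was in Cfd, at 2.81 (SE 0.89), which did not pass and was well above background in 2 KO and 2 WT livers. Over all genes tested, 2.88% passed as higher in KO livers. The bile duct list was also apart, at -3.21 to -2.86 in KO livers and -3.51 to -3.24 in WT livers, with none of its 5 measured genes passing. What these markers contribute to the results was not tested. Slide 1 held WT 1, WT 2, KO 1 and KO 2, slide 2 held KO 3 and KO 4, slide 3 held WT 3, WT 4 and KO 5, and slide 4 held WT 5, each slide in a scan of its own.

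In KO livers 2 of the 30 genes rose, the pantetheinase Vnn1 by 1.45 (SE 0.25) and the carnitine palmitoyltransferase Cpt1b by 0.47 (SE 0.12), and none fell. Over all genes tested 5.96% passed (2.88% higher and 3.08% lower), with limma and an adjusted p under 0.05. The other 28 did not pass, among them every dehydrogenase, every enzyme of the later steps and Ppara itself. At an unadjusted p under 0.05 there were 10 genes, all higher in KO, where 20.9% of all genes lay under that limit. The fold change was above 0 for 24 of 30 genes (49.3% of all genes), and the median was 0.14 (-0.0028 over all genes). This count depended on the processing. It was 17 with the log ratio of the scanner software and 20 without both male KO livers. With median centring it was 27, where the median over all genes was 0.07. In bulk tissue, less RNA per cell and fewer cells of a type cannot be told apart.

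The median shift of the set overlapped between the genotypes. The median deviation of the 30 genes from their WT means was 0.20, 0.27, 0.01, 0.23 and 0.04 in KO livers 1 to 5, against -0.11, -0.06, 0.15, 0.08 and -0.18 in WT livers 1 to 5. Both WT females, livers 3 and 4, lay above KO 3 and KO 5. Within slide 1, KO 1 against WT 1 and WT 2 compares males only, and there 25 of the 30 genes were higher in KO (48.1% of all genes).

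**Figure D1:**
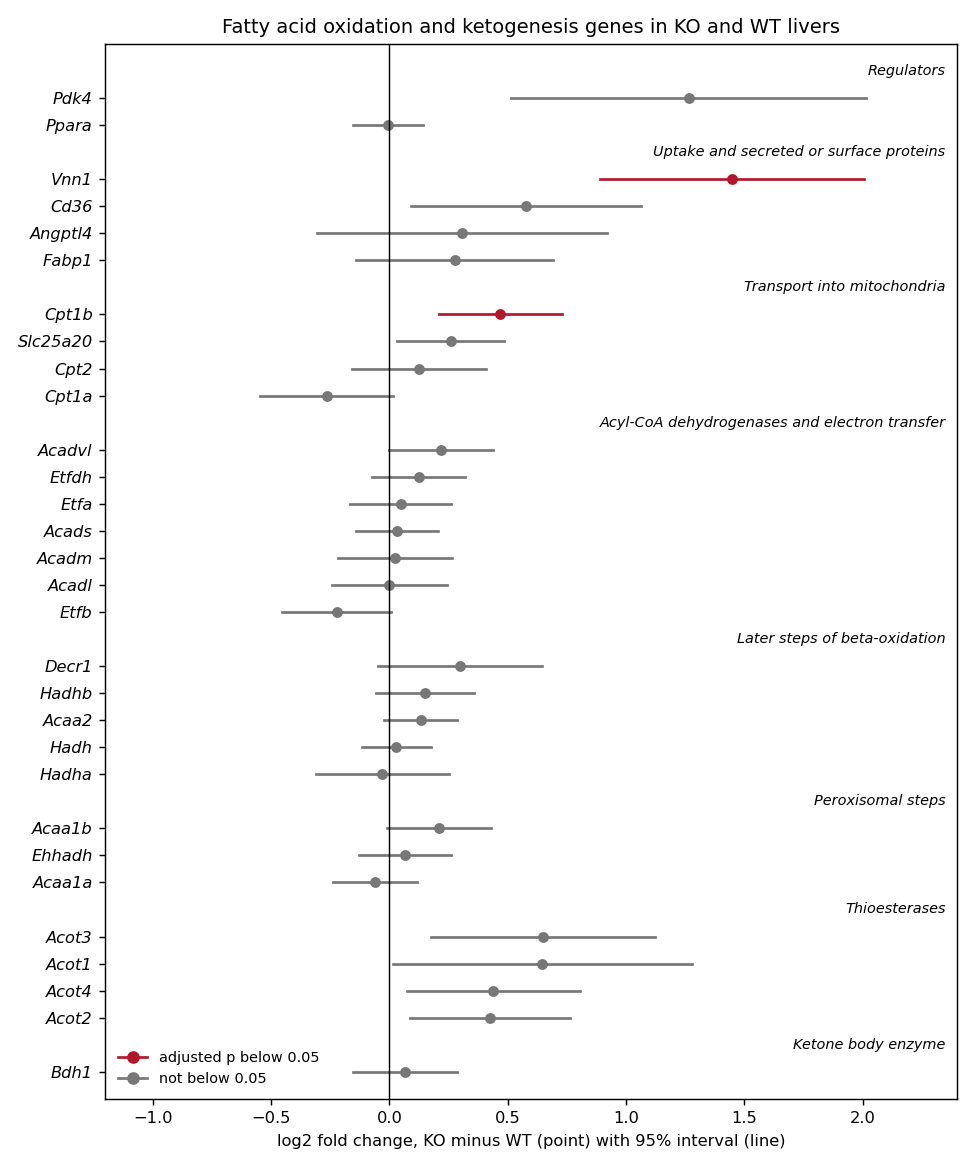
Log2 fold change, KO minus WT, of the 30 genes by role, from the fit with sex (points, with 95% intervals as lines). Red marks an adjusted p under 0.05, and Vnn1 (1.45) and Cpt1b (0.47) are the 2 genes so marked.

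Among the regulators, Ppara, which encodes PPAR alpha, differed by -0.01 (SE 0.07, adjusted p = 0.975), with a 95% interval of -0.15 to 0.14. Pdk4, the kinase that shuts off pyruvate dehydrogenase when fat is burned, had levels of 1.97, 3.88, 3.32, 4.56 and 1.52 in KO livers 1 to 5, against 0.60, 1.94, 1.98, 1.86 and 1.12 in WT livers 1 to 5. The 3 KO females lay above all other livers, while both KO males lay within the WT range. The KO females were on slides 1 and 2 and both WT females on slide 3, so genotype and slide cannot be told apart among females. The log2 fold change was 1.27 (SE 0.34, limma adjusted p = 0.0528), which did not pass. It did pass without WT 2 (1.497, adjusted p = 0.0149), without KO 5 (1.52, 0.0312), without both male KO livers (2.002, 0.0242), with slide as a random block (1.14, 0.0492) and with the filter on all 10 arrays (0.0464), over a range of 0.0149 to 0.164. With slide as a fixed block it was 0.99 and did not pass. Sex differs between the genotypes within both slides that hold both: slide 1 (1.65) sets a KO male and a KO female against WT males, and slide 3 (-0.40) a KO male against WT females. Between the males of slide 1 it was 0.70.

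Vnn1 encodes a pantetheinase anchored at the cell surface and is a known target of PPAR alpha. Its probe lies at chr10:23655645-23655704 in mm7, the build of the array files. Its levels were 4.85, 5.05, 4.12, 5.09 and 4.30 in KO livers 1 to 5, against 2.27, 2.70, 4.05, 3.55 and 2.91 in WT livers 1 to 5. Every KO liver lay above every WT liver, which held for 1 of the 30 genes and for 2.95% of all genes, though KO 3 exceeded WT 3 by little. The means were 4.68 ± 0.44 in KO and 3.097 ± 0.71 in WT livers (SD, n = 5 each), a 2.73-fold rise (limma adjusted p = 0.0079). The rise was 1.77 with slide as a block (adjusted p = 0.0106), 2.46 within slide 1, 0.50 within slide 3, and 2.36 between KO 1 and the WT males of slide 1. It passed under 22 of 24 alternatives (adjusted p 0.00144 to 0.112), and without both male KO livers it was 0.95 and did not pass.

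The other uptake, carrier and secreted proteins did not pass. Cd36, a fatty acid translocase of the cell membrane, differed by 0.58 (SE 0.22, adjusted p = 0.16), and by 0.45 on its other probe, and was highest in KO 4 at 1.85. Cd36 is also expressed by endothelial cells, and 2 of their 7 listed markers passed as higher in KO livers, as given above. What these cells contribute to the Cd36 values was not tested. Fabp1, the fatty acid binding protein of the liver, had 0.28 (SE 0.19, adjusted p = 0.46), and -0.0087 without WT 4, the lowest liver at 9.58. Angptl4, a secreted inhibitor of lipoprotein lipase, had 0.31 (SE 0.28, adjusted p = 0.593). It passed with slide as a fixed block (0.68, adjusted p = 0.0301, with 0.0301 to 0.987 over its alternatives), and ran from 0.01 to 0.52 with each liver left out, the lowest without KO 5.

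**Figure D2:**
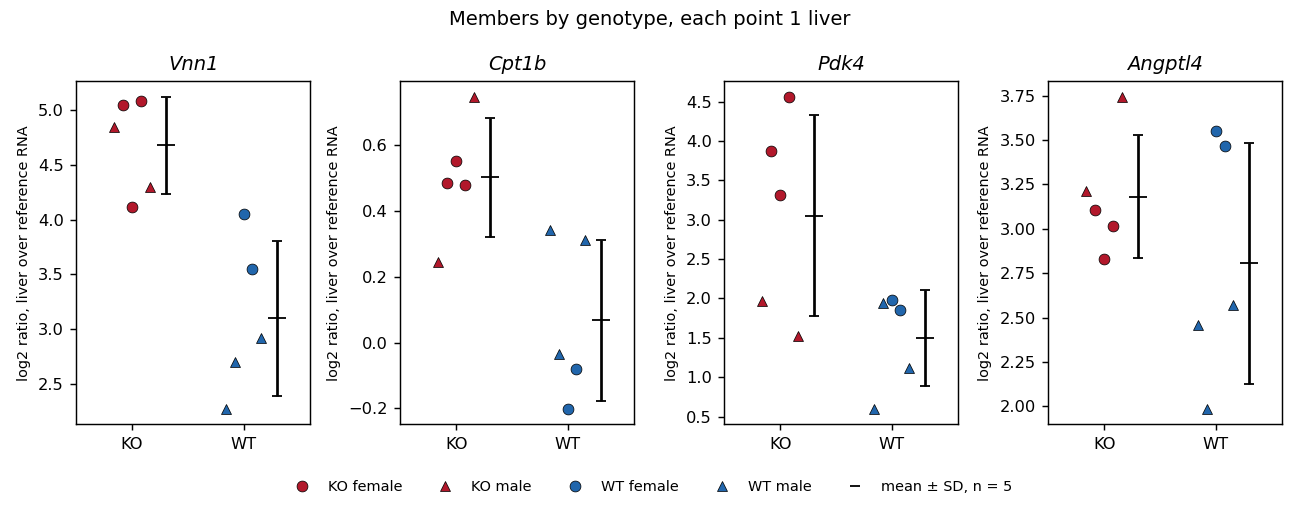
Log2 ratio of liver over reference RNA for Vnn1, Cpt1b, Pdk4 and Angptl4 in each liver, KO left of WT, with females as circles and males as triangles and the mean ± SD of 5 livers beside them. Vnn1 separates the genotypes, and the 3 KO females stand highest for Pdk4.

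Transport into mitochondria depends on the carnitine shuttle. Cpt1b, the muscle-type carnitine palmitoyltransferase of the outer membrane (chr15:89499336-89499395), had levels of 0.25, 0.49, 0.55, 0.48 and 0.75 in KO livers 1 to 5, against 0.34, -0.03, -0.20, -0.08 and 0.31 in WT livers 1 to 5. Only KO 1 lay inside the WT range, below WT 1 and WT 5. The rise of 0.47 was 1.38-fold (limma adjusted p = 0.0407), and a second Cpt1b probe, well above background in 5 KO and 2 WT livers, rose by 0.84 (SE 0.09, adjusted p = 0.000482 over probes). With slide as a block the difference was 0.46 and did not pass (adjusted p = 0.0966), and the call held in 9 of 24 alternatives (adjusted p 0.000603 to 0.215). Of the 10 livers, the call outlived the omission of KO 1, WT 1 or WT 5 and of no other, with values of 0.40 to 0.61. The difference was 0.21 in slide 1 and 0.89 in slide 3. Of 5 skeletal muscle markers 4 were measured and none passed, with list means of -0.82 to -0.77 in KO livers and -0.94 to -0.61 in WT livers. None of the 4 was well above background on all 10 arrays. What muscle RNA contributes to the Cpt1b values was not tested.

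Cpt1a, the liver form and the rate-setting step of the shuttle, did not pass. Its log2 fold change was -0.27 (SE 0.13, adjusted p = 0.267), and its other probe gave -0.42 and did not pass either. Slc25a20, the carnitine-acylcarnitine translocase of the inner membrane, had 0.26 (SE 0.10, adjusted p = 0.175), and Cpt2, which returns the acyl group to coenzyme A, had 0.12 (SE 0.13, adjusted p = 0.648). None of these 3 passed for genotype or sex.

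The 7 acyl-CoA dehydrogenases and electron carriers had fold changes between -0.22 and 0.22, and none passed for genotype. Acadvl, the very-long-chain dehydrogenase, had the smallest p of them, with levels of 2.77, 2.87, 2.79, 2.83 and 2.65 in KO livers 1 to 5, against 2.78, 2.72, 2.34, 2.63 and 2.37 in WT livers 1 to 5. The groups overlapped through WT 1 and WT 2, and the difference of 0.22 (SE 0.10) had an adjusted p of 0.239 in limma. The short-, medium- and long-chain dehydrogenases Acads (0.03), Acadm (0.02) and Acadl (-0.0009) lay near 0. Of the proteins that pass the electrons on to the respiratory chain, Etfa had 0.05, the oxidoreductase Etfdh 0.12 and Etfb -0.22 (SE 0.10, adjusted p = 0.249). Etfb passed as lower with slide as a block (-0.32, adjusted p = 0.0395, against 0.0395 to 0.993 over its alternatives).

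The later steps of beta-oxidation did not pass for genotype either, with fold changes of -0.03 to 0.30 over 5 genes. Decr1, the reductase needed for unsaturated fatty acids, had 2.78, 3.05, 2.57, 2.79 and 2.51 in KO livers 1 to 5, against 2.26, 2.52, 2.91, 2.39 and 1.81 in WT livers 1 to 5. WT 3 lay above all KO livers but KO 2, so the groups overlapped. Its difference was 0.30 (SE 0.16, limma adjusted p = 0.318). The subunits of the trifunctional protein, Hadha (-0.03) and Hadhb (0.15), the hydroxyacyl-CoA dehydrogenase Hadh (0.03) and the thiolase Acaa2 (0.13) completed the group.

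Peroxisomal thiolase and bifunctional enzyme showed the same lack of a call. Acaa1b, a peroxisomal thiolase, had 5.80, 5.24, 5.20, 5.38 and 5.39 in KO livers 1 to 5, against 5.21, 5.41, 5.28, 4.93 and 5.41 in WT livers 1 to 5. KO 1 stood above all other livers and the rest overlapped, with a difference of 0.21 (SE 0.10, limma adjusted p = 0.265). Ehhadh, the bifunctional enzyme, had 0.07 (SE 0.09, adjusted p = 0.731). The 3 probes of the second thiolase gene, Acaa1a, disagreed for genotype: the brightest gave -0.06, another rose by 0.39 (adjusted p = 0.0348 over probes) and the third gave 0.30. Acaa1a and Acaa1b are close copies, and the array cannot be checked for shared hybridisation from the files used here.

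Ketone body synthesis was represented by Bdh1, the dehydrogenase that turns acetoacetate into beta-hydroxybutyrate. It had 4.31, 4.50, 4.33, 4.65 and 4.37 in KO livers 1 to 5, against 4.07, 4.17, 4.48, 4.39 and 4.56 in WT livers 1 to 5. The groups overlapped, with a difference of 0.06 (SE 0.10, limma adjusted p = 0.777). Of 10 other ketone body genes none passed for genotype, and 2 had an unadjusted p under 0.05 in limma, both higher, against 20.9% of all genes under that limit.

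The 4 acyl-CoA thioesterases, which split acyl-CoA into free fatty acid and coenzyme A, are neighbours on chromosome 12. Their probes lie between 81989158 and 82054734 in mm7, in the order Acot2, Acot1, Acot4 and Acot3. Acot1 encodes a cytosolic enzyme, Acot2 a mitochondrial one, and Acot3 and Acot4 peroxisomal ones. They are close paralogs, so a probe may take up RNA of a neighbour, and the files used here hold no probe sequence to check this. The start regions of Acot3 and Acot4, the genes with the largest sex differences of the set, are shown because both were higher in females. They are RefSeq windows of GRCm38.p6, from 250 bases before the gene start to 50 after it, on the plus strand at chr12:84051894-84052193 for Acot3 (the first of its starts) and chr12:84038129-84038428 for Acot4.
Acot3: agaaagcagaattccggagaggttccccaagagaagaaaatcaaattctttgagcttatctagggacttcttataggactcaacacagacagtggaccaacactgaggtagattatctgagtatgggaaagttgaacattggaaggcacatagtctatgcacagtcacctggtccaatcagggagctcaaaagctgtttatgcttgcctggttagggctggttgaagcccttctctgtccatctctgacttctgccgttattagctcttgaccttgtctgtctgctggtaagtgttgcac
Acot4: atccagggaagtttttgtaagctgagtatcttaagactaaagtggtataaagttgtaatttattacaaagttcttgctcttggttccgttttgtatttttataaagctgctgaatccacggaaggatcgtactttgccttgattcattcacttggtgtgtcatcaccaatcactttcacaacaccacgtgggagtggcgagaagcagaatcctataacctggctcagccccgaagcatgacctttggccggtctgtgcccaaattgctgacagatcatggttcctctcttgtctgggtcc
Neither window held any of the 4 motifs searched, so no base is in capitals.

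All 4 thioesterases had positive genotype differences without passing. Acot3 had levels of 1.38, 4.95, 4.10, 4.96 and 0.78 in KO livers 1 to 5, against -0.03, -0.03, 4.67, 4.15 and 0.21 in WT livers 1 to 5, one WT liver not being well above background. The livers were ordered by sex, with every female at 4.10 or more and every male at 1.38 or less. With sex in the model, KO minus WT was 0.65 (SE 0.22, limma adjusted p = 0.107) for Acot3, 0.65 (adjusted p = 0.23) for Acot1, 0.44 (0.155) for Acot4 and 0.42 (0.139) for Acot2. Among males both KO livers lay above the 3 WT livers for each of the 4 genes, as they did for 14.5% of all genes, while in females the genotypes overlapped for each. Between KO 1 and the WT males of slide 1, Acot1 differed by 1.59, Acot3 by 1.41, Acot4 by 1.12 and Acot2 by 0.86. Without KO 3, Acot2 (0.53, adjusted p = 0.0427, with 0.0427 to 0.669 over its alternatives) and Acot3 (0.81, adjusted p = 0.0185, with 0.0185 to 0.617) passed. Acot1 passed with slide as a block (1.09, adjusted p = 0.0366, against 0.0366 to 0.923 over its alternatives).

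**Figure D3:**
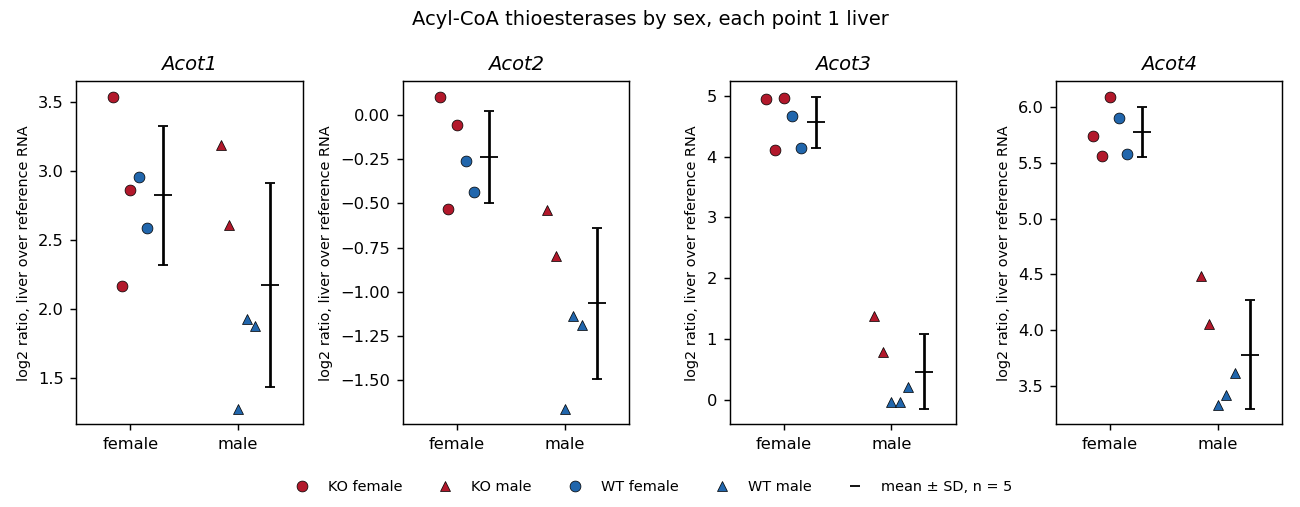
Log2 ratio of liver over reference RNA for the 4 thioesterase genes in each liver, females left of males, KO in red and WT in blue, with the mean ± SD of 5 livers beside each sex. Acot3 and Acot4 separate the sexes, and within males both KO livers lie above the 3 WT livers in all 4 panels, as for 14.5% of all genes.

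For sex, 7 of the 30 genes passed, against 2 for genotype. In females 6 of the 30 genes were higher and 1 lower than in males, and 6 had every female beyond every male. Over all genes 11.5% passed for sex (4.99% higher and 6.55% lower in females), and 9.22% had every female beyond every male. Acot3 averaged 4.57 ± 0.42 in females and 0.46 ± 0.61 in males (SD, n = 5 each), a difference of 3.97 (SE 0.22, 15.7-fold, limma adjusted p = 7.42e-07). It was 4.20 with slide as a block and 3.57 between the female and the male KO liver of slide 1, and it passed in all 22 alternatives that measured it.

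Acot4 and Acot2 were also higher in females. Acot4 had levels of 5.74, 5.56, 6.09, 5.90 and 5.58 in females KO 2, KO 3, KO 4, WT 3 and WT 4, against 4.49, 4.06, 3.33, 3.41 and 3.61 in males KO 1, KO 5, WT 1, WT 2 and WT 5. The sexes did not overlap, and the difference was 1.91 (SE 0.17, 3.75-fold, limma adjusted p = 3.72e-05), with 1.23 at a second probe and 1.25 between the KO livers of slide 1. Acot2 had 0.10, -0.53, -0.06, -0.26 and -0.43 in the same females, against -0.53, -0.80, -1.66, -1.14 and -1.19 in the same males. The lowest female, KO 3, and the highest male, KO 1, met at about the same level, and the difference was 0.74 (SE 0.15, adjusted p = 0.00945). Acot1 had a sex difference of 0.52 (SE 0.29, adjusted p = 0.302), which did not pass.

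Hadh and Acadl, enzymes of the mitochondrial cycle, were higher in females by smaller amounts. Hadh had 2.08, 2.13, 2.20, 2.05 and 2.22 in females KO 2, KO 3, KO 4, WT 3 and WT 4, against 1.87, 1.71, 1.76, 1.77 and 1.69 in males KO 1, KO 5, WT 1, WT 2 and WT 5. The sexes did not overlap, and the difference was 0.37 (SE 0.07, limma adjusted p = 0.00353), 0.35 with slide as a block and 0.21 between the KO livers of slide 1. Acadl had 2.48, 1.99, 2.15, 2.45 and 2.28 in the same females, against 1.97, 1.86, 1.89, 1.80 and 1.59 in the same males. KO 3 and KO 1 were close to each other at the border of the sexes, and the difference was 0.44 (SE 0.11, adjusted p = 0.0244). The Acadl call ended when KO 2, WT 3 or WT 4 was left out (0.37 to 0.51 over the 10 omissions), and was 0.55 with slide as a block (adjusted p = 0.0042, with 0.0042 to 0.455 over its alternatives).

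Pdk4 was higher in females by 1.43 (SE 0.34, 2.70-fold, limma adjusted p = 0.0196). The sex difference was 2.17 (SE 0.39) among KO livers and 0.70 (SE 0.39) among WT livers. From the levels given above, the WT females at 1.98 and 1.86 lay beside WT 2, a male at 1.94, so the sexes overlapped. The call was lost without KO 1 or without KO 5, the male KO livers (1.18 to 1.67 over the 10 omissions). A slide block gave 1.56 (adjusted p = 0.0348, with 0.00361 to 0.933 over its alternatives).

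Acaa1a was the gene lower in females. Its levels were 2.27, 2.10, 2.09, 2.41 and 2.14 in females KO 2, KO 3, KO 4, WT 3 and WT 4, against 2.71, 2.46, 2.58, 2.62 and 2.55 in males KO 1, KO 5, WT 1, WT 2 and WT 5. All females lay below all males, with WT 3 and KO 5 nearest to each other. The difference was -0.37 (SE 0.08, limma adjusted p = 0.0121), and its 3 probes gave -0.37, -0.42 and -0.46, all of which passed. With slide as a block it was -0.29 and did not pass (adjusted p = 0.105, with 0.00354 to 0.832 over its alternatives). Bdh1 had 0.17 (SE 0.10, adjusted p = 0.343), though its second probe passed at 0.37 (adjusted p = 0.0479 over probes).

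The KO difference was then set against sex. No gene of the set passed the genotype by sex interaction, where 0.0317% of all genes did, and 8 of 30 had an unadjusted p under 0.05 in limma (12.5% of all genes). The KO minus WT estimate was larger in males than in females for 22 of the 30 genes (46.6% of all genes). Both KO males lay above all 3 WT males for 10 of the 30 genes (14.5% of all genes), and all 3 KO females above both WT females for 6 (21.3%). Among females, no slide held both genotypes. Vnn1 was among both the 10 and the 6, with a KO difference of 0.95 (SE 0.30) in females and 1.95 (SE 0.30) in males.

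Angptl4 had the smallest interaction p of the set and was singled out after its values were seen. Its levels were 3.11, 2.83 and 3.01 in KO females and 3.55 and 3.47 in WT females, while males had 3.21 and 3.74 in KO and 2.46, 1.99 and 2.57 in WT livers. KO females lay below WT females, and KO males above WT males, with no overlap in either sex. The share of all genes ordered in this way was not computed. Both KO males were also the highest livers for Cidec and Fabp4 of the adipocyte list (Fabp4 4.52 and 4.34, at most 3.75 elsewhere). Lpl of that list did not set both apart, at 0.36 and 0.80 against 0.35 to 0.49 in WT males. Plin1 had a KO difference of -0.08. What adipocyte RNA contributes to the Angptl4 values was not tested. The KO difference of Angptl4 was -0.53 (SE 0.19) in females and 1.14 (SE 0.19) in males, and their difference of -1.66 (SE 0.27) had an adjusted p of 0.107 in limma. It was -0.86 with slide as a block (adjusted p = 0.898, with 0.0228 to 0.898 over its alternatives). The KO and WT females lay on different slides. It passed without KO 1 and without WT 5, over a range of -1.93 to -1.40 with each liver left out. Pdk4 ran the other way, with a KO difference of 2.002 (SE 0.39) in females and 0.53 (SE 0.39) in males, and its interaction of 1.47 (SE 0.55, adjusted p = 0.338) did not pass. With slide as a block the Pdk4 interaction was 0.80 (limma adjusted p = 0.993).

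**Figure D4:**
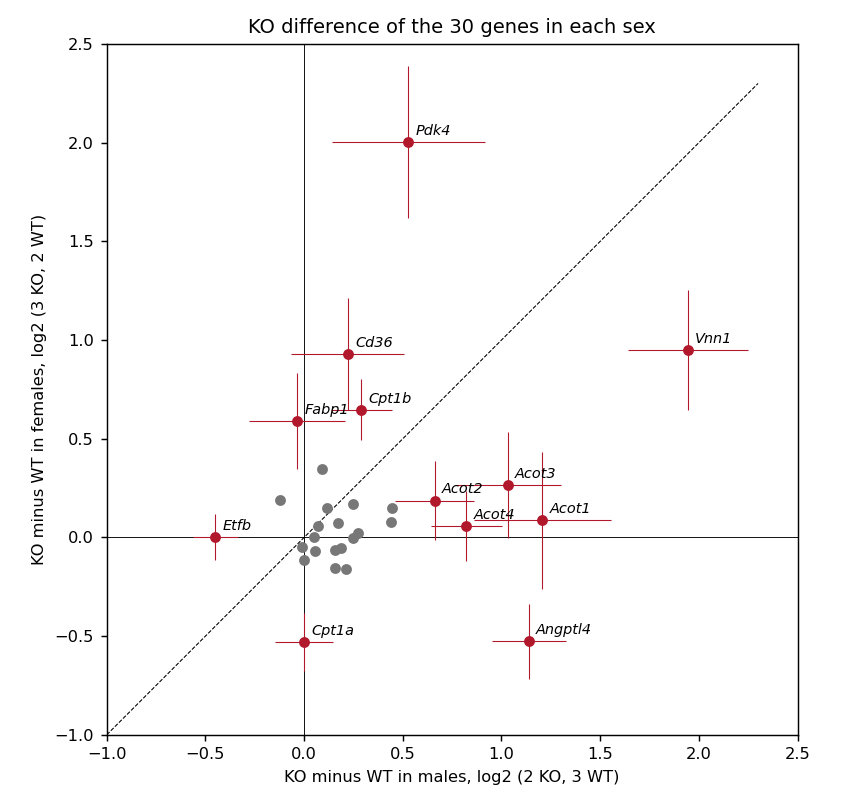
KO minus WT difference (log2) of each of the 30 genes in males (x axis, 2 KO and 3 WT) and females (y axis, 3 KO and 2 WT), with SE bars and names for 12 genes and the dashed line where both are equal. Angptl4 lies at 1.14 in males and -0.53 in females, and Pdk4 lies above the line and the 4 thioesterases below it. Among females, KO and WT livers were on different slides.

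The start regions of the set were searched for 4 motifs on both strands. RefSeq windows of GRCm38.p6 were found for 25 of the 30 genes, and not for Cpt1b, Acaa2, Vnn1, Angptl4 and Decr1. The direct repeat bound by PPAR alpha with its partner RXR, 2 copies of AGGTCA with 1 base between them, was in none of the 25 and in 0.0481% of 27025 genes. A looser form, 2 copies of AGGNCA with the same spacing, contains it and was in 1 of 25, Fabp1, and in 0.451% of all genes. The Fabp1 window is shown for that match, at chr6:71199629-71199928 on the plus strand, with the 13 matching bases in capitals, read as the motif on the opposite strand, beginning 67 bases before the start.
Fabp1: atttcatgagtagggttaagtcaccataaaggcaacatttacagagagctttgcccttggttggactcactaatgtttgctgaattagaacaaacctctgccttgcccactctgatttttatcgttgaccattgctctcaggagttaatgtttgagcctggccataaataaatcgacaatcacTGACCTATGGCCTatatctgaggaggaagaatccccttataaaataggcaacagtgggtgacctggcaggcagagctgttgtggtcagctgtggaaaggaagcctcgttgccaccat
The cAMP response element TGACGTCA was in none of the 25 and in 2.03% of all genes. The motif TTCNNNGAA, which STAT5 binds and which reads alike on both strands, was in 3 of 25, Cpt2, Hadha and Hadhb, and in 9.55% of all genes. The windows of Hadha and Hadhb overlap on opposite strands and share 1 match.

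Outside the set, 129 of 137 listed genes of fatty acid use were measured, of which 13 rose and 6 fell in KO livers, where 5.96% of all genes passed. The largest rise was in Fgf21, a liver hormone of fasting and amino acid shortage, with 1.53, 1.53, 0.91, 1.95 and 1.24 in KO livers 1 to 5, against -1.60, -1.38, -0.53, -1.07 and -0.97 in WT livers 1 to 5, 4 of the WT livers being well above background. The groups did not overlap, and the rise was 2.48 (SE 0.20, 5.59-fold, limma adjusted p = 5.91e-05). Other regulators that rose were the corepressor Nrip1 (0.56) and the AMP-activated kinase subunit Prkaa1 (0.30), and those that fell were the coactivator Ppargc1a (-0.50, with -1.15 at a second probe) and the retinoid receptor Rxrg (-0.38).

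In peroxisomes 3 of 20 genes rose and 2 fell. Pex11a, which takes part in peroxisome division, rose by 1.06 (SE 0.16), the fatty acyl-CoA transporter Abcd2 by 0.85 (SE 0.15, well above background in 2 WT livers), and the isomerase Eci2 by 0.48 (SE 0.12). Phyh, which starts the breakdown of phytanic acid, fell by 0.44 on the log2 scale (SE 0.09), and Nudt7, a coenzyme A diphosphatase, fell by 0.58 (SE 0.14).

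Of 16 uptake and activation genes, the binding protein Fabp5 rose by 0.83 (SE 0.12) and the acyl-CoA synthetase Acsl4 fell by 0.57 (SE 0.09, with WT 5 missing), while its other probe gave -0.19 and did not pass. Crat, which moves short acyl groups to carnitine, rose by 0.73 (SE 0.14), as 1 of 16 other mitochondrial genes. The kinase Pdk1 (0.59) and its substrate subunit Pdha1 (0.28) both rose among 9 pyruvate dehydrogenase genes, each with a second probe that did not pass. Ucp2, a mitochondrial carrier (0.66), and Retsat, a retinol saturase (0.66), rose, and the omega-hydroxylase Cyp4v3 (-0.37) fell. Cidec, a lipid droplet protein, rose by 1.40 (SE 0.34), with 3.99 and 3.21 in the KO males against 0.90 to 1.46 in the other 8 livers.

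**Figure D5:**
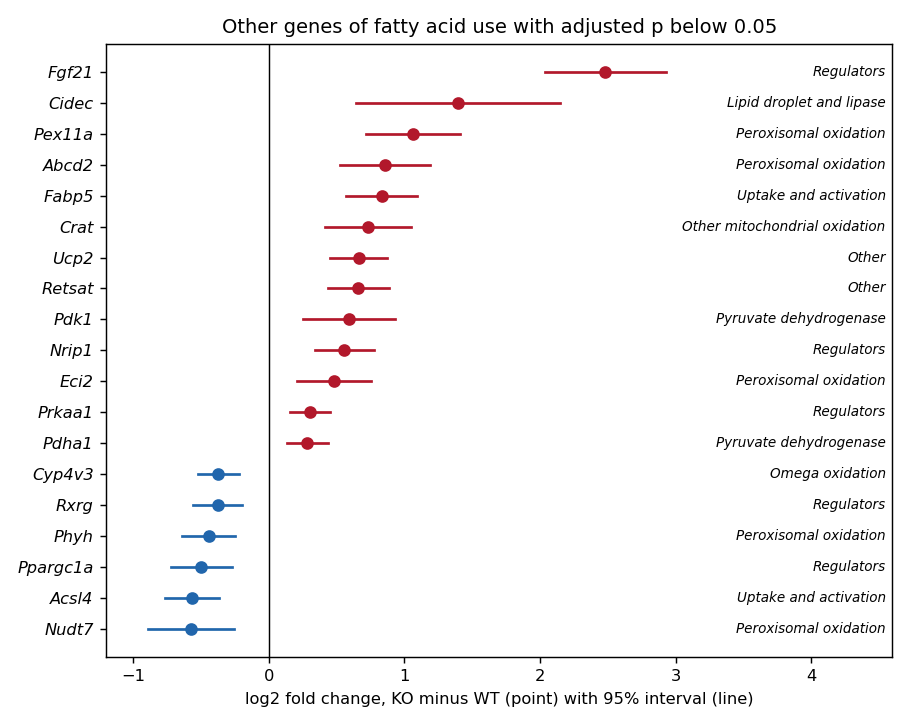
Log2 fold change, KO minus WT, with 95% intervals, of the 19 listed genes of fatty acid use outside the set with an adjusted p under 0.05, each with its list. Fgf21 (2.48) stands highest and Nudt7 (-0.58) lowest.

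Second probes did not pass for Abcd2 (0.50), Nudt7 (-0.37), Prkaa1 (0.09) and Ucp2 (0.46). With slide as a block, Crat (adjusted p = 0.0663), Rxrg (0.0842), Ppargc1a (0.0512) and Pdha1 (0.128) no longer passed, and the other 15 did. Cidec was 0.36 without both male KO livers and did not pass. Leaving out a single liver ended further calls. That of Eci2 (0.41 to 0.61 over 10 omissions) was lost without any liver but KO 3 or WT 3, and that of Pdk1 (0.45 to 0.70) without any but KO 5 or WT 5. Pdha1 (0.24 to 0.31) was lost without any of KO 1 to KO 4 or WT 2 to WT 4, and Cidec (1.01 to 1.64) without any but KO 3, WT 3 or WT 4. Nudt7 (-0.72 to -0.50) was lost without any of KO 1, KO 4, KO 5 or WT 1 to WT 3, and Prkaa1 (0.27 to 0.34) without any of KO 2, KO 4, KO 5 or WT 2 to WT 4. Rxrg (-0.45 to -0.33) was lost without KO 4, KO 5 or WT 3, Crat (0.62 to 0.83) without KO 1, and both Phyh (-0.52 to -0.37) and Ppargc1a (-0.57 to -0.43) without WT 3.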

How the data were processed

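RNA of 10 livers (5 KO, 5 WT) was measured on Agilent 2-colour arrays, which the submitters' processing notes say were read with Agilent Feature Extraction 10.7. Per the file headers, the deposited spot signals (means) and local backgrounds are linear intensity values. A log10 ratio of Cy5 over Cy3, computed by the scanner software, is deposited beside them, per the file headers. The authors' deposited value table was found to hold log2 ratios in the same direction, since its columns had slopes near 1 against their own arrays; its column medians were 0.00776 to 0.023, and its background correction and normalisation are not given in the sources used.

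From the intensities, outlier-flagged spots (169 to 291 an array) were dropped, background was corrected with normexp (offset 50), and log2 ratios were loess-normalised array by array, giving control spots a weight of 0. Replicate spots were averaged, and 26933 probes whose Cy5 signal was well above background on 4 or more of 10 arrays were kept. Each gene was represented by its brightest probe, and 64 of 18921 genes had a missing value, none of them in the set. Names were brought up to date through RefSeq (22951 probes by accession, 6659 by symbol, 3109 by synonym), and 8455 probes kept the name in the files.

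Fits used limma 3.58.1 in R 4.3.3 with genotype and sex as terms, a second fit added their interaction, and p-values were adjusted by Benjamini-Hochberg over all 18921 genes at a threshold of 0.05. Fits were tested on simulated data. Arrays give no counting depth, and the number of arrays limits the precision. The arrays also differed in brightness. After background subtraction, half-way Cy5 intensities (medians) ran from 111.6 to 133.6 for KO 1 to KO 4, WT 1 and WT 2. For KO 5 and WT 3 to WT 5 they ran from 58.7 to 78.9. Brightness was thus partly tied to genotype, and it followed the slides. What it contributes to the fold changes, apart from the fits with slide as a block, was not tested.

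The genes of the set, the lists and the tests were chosen with earlier results of these data known. Levels in each liver are given for genes that passed for genotype or sex, for genes whose groups did not overlap, and for the gene of each role with the smallest genotype p. The other genes of fatty acid use are named where they passed. The markers were those of hepatocytes, adipocytes, brown fat, skeletal muscle, Kupffer, endothelial, stellate and bile duct cells, lymphocytes, erythroid cells and kidney. Besides the lists given in the report, the only gene past the threshold was Umod of the kidney list, lower in KO livers by a log2 difference of -0.30. The alternatives were the scanner's ratio, the authors' table, median centring, flags removed after the background fit, Cy5 alone, 2 other filters, the mean of probes, no sex term, slide as a fixed or random block, a replicate block, array weights and each liver left out.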

Additional observations from a re-analysis of the deposited data

Results flagged for a closer look

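Fabp1 in WT livers had 1 liver far from the others. WT 4 was at 9.58 and the other 4 WT livers at 10.55 to 10.75, a gap of 0.828 of the group's range. Without WT 4 the KO difference of Fabp1 was -0.0087, against 0.28 with it. It was 1 of 60 groups of 5 livers checked, by a rule with a nominal chance rate of about 1 in 20. Each group holds both sexes, so that rate is only a rough guide.

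The KO difference of Angptl4 was lower in females than in males by -1.66 on the log2 scale, with all KO females below all WT females and all KO males above all WT males. How many of all genes were ordered in this way was not computed, and Angptl4 was singled out after its values were seen. The test of this difference had an adjusted p of 0.107 in limma and did not pass.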

How the results depend on the processing

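The count of genes of the set that passed for genotype was 2, and 1 with the scanner's ratio, with median centring, with outlier spots removed after the background fit, without the sex term and with array weights, 4 with slide as a fixed block, 3 with slide as a random block and 3 with the filter on all 10 arrays (both adding Pdk4), and 1 to 3 with each liver left out. With Cy5 alone it was 2, Ehhadh (0.63, against 0.07) taking the place of Cpt1b. The count over all genes was 1127, against 279 with median centring (72% higher, against 48.4%, and a median of all genes of 0.07), 337 with outlier spots removed after the background fit (58.8% higher), 619 without the sex term and 590 to 1173 with each liver left out (590 without WT 3, 596 without KO 1, 667 without KO 4). The other genes of fatty acid use that passed numbered 19, against 6, 9 and 10 under those 3 settings, 12 without both male KO livers, a fit chosen after seeing the data, and 12 to 22 with each liver left out. For sex 7 genes of the set passed, against 4 with median centring and 4 with outlier spots removed after the background fit. For the interaction none passed, against 1 with Cy5 alone (Angptl4) and 0 to 1 with each liver left out (Angptl4 without KO 1 or WT 5, Fabp1 without WT 3). The median fold change of the set was 0.14, and -0.072 within slide 3, which compares a KO male with WT females. Within single slides 4 other genes turned: Rxrg to 0.38 in slide 1, and Abcd2 to -1.61, Nudt7 to 0.68 and Cyp4v3 to 0.061 in slide 3. Slide 1 sets a KO male and a KO female against WT males, so sex differs between the genotypes in both slides. The cause of these changes was not tested. Of the 28 genes of the set that did not pass, 24 changed sign under at least 1 setting, with slide 1 alone and slide 3 alone counted as settings. For Acot1, Acot2, Acot3, Acot4, Pdk4, Cd36, Hadhb and Decr1 the only change was in slide 3, a KO male against WT females. For Cpt1a the only change was in slide 1.

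Whether replicate numbers pair the livers could not be decided. Deviations from the genotype means correlated at -0.425 to 0.53 between same-numbered livers, and not every liver correlated best with its own number. Sex and slide were left in these deviations. The value of -0.425 was for replicate 2, a KO female and a WT male, and the same-sex replicates had 0.222 to 0.53. With the replicate block 303 genes passed, 0 of the set and 5 of the other genes of fatty acid use, and 1 gene of the set (Acot3) passed for sex.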
